A study of Mus musculus with 10 samples.

Results

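The genes described here encode the subunits of mitochondrial complex I, the NADH:ubiquinone oxidoreductase of the respiratory chain. They were chosen by name, as the protein-coding rows of the table that carry a symbol beginning with Ndufa, Ndufb, Ndufc, Ndufs or Ndufv and a number, together with Ndufab1, and that reach a mean of at least 1 normalized count. This gave 38 genes of the 24560 tested and of 55359 in the table. The assembly factors, which share the first letters of the name but are not part of the finished enzyme, were left out of the set, as were 3 processed pseudogenes above that mean (Ndufa11b, Ndufab1-ps and Ndufb4c) and Ndufb1-ps, which the annotation classes as a noncoding transcript.

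Transcripts were measured by RNA sequencing in 10 orthotopic pancreatic tumors that grew from KPC K8484 cells in C57BL/6 mice (C57BL/6 J in the study's methods). The titles of the samples call them PDX, while their source field names the KPC K8484 cells, and the identifiers in the table are those of mouse genes. KPC K8484 is a single murine pancreatic cancer line from a mouse in which Pdx1-Cre switched on mutant alleles, that of Trp53 among them, in the pancreas, and the cells used here also carried luciferase. The mice were immunocompetent, were 10 weeks old when cells were injected into the pancreas, and were imaged on day 7 for the presence of tumors. In the control group (CTRL, 5 tumors) normoglycemic mice drank regular water. In the D30 group (5 tumors) mice became hyperglycemic on water with 30% dextrose, taken ad libitum. The study's legend gives 14 days for the orthotopic tumors of its metabolite measurements and states no time of its own for the sequenced ones. No chemotherapy is named for either group. The study's methods state that orthotopic experiments used as many male as female mice, and sex was not given for single tumors. The table names its columns N1, N2, N4, N5 and N6 and T1, T2, T4, T5 and T7, which give the group but not the animal, so tumors are called by these names, N for CTRL and T for D30. The labels number the tumors of a group as replicates and tie none of them to an animal, so p values measure the spread between these tumors. The values are normalized counts, that is, the reads of a gene divided by 1 size factor for each tumor. They rest on 29192261 to 42122304 reads a tumor. Fold changes compare D30 with CTRL on the scale of log2(normalized count + 1), and a gene was called when limma's adjusted p (Benjamini-Hochberg, over all genes tested) was under 0.05.

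Complex I takes electrons from NADH in the matrix, passes them along a chain of iron-sulfur clusters to ubiquinone and pumps protons across the inner mitochondrial membrane. It has an L shape, with a matrix arm that holds the electron path and a membrane arm that holds the pumps. The core subunits do the chemistry. Those of the matrix arm are encoded in the nucleus (such as Ndufv1, Ndufs1 and Ndufs8) and those of the membrane arm in mitochondrial DNA (the mt-Nd genes), while the accessory subunits, all nuclear, stabilise and anchor the enzyme. In tumors the complex sustains the NAD+ supply that aspartate synthesis depends on and is a source of reactive oxygen species.

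All 38 genes had a higher mean log2 level in D30 than in CTRL tumors with the deposited scaling and 28 had with tumors scaled by their total reads, against 45.3% and 31.4% of all genes tested. The median log2 fold change of the subunits was 0.41, and that of all genes tested was -0.06. A single subunit gene, Ndufa6, was called, against a background of 1.4% of genes called higher, and 11 had an unadjusted p under 0.05 in the same direction, against 7.79% of genes. Groups did not overlap for 4 genes (Ndufa6, Ndufa3, Ndufb3 and Ndufa1), against 2.87% of genes. Scaling by total reads alone moved the median of all genes to -0.27 and that of the subunits to 0.19, with 10 of the 38 lower in D30 tumors and 0 called (limma; 3 had an unadjusted p under 0.05, and 0.975% of genes were called higher). Relative to the median of all genes the subunits lay 0.46 higher under that scaling and 0.48 higher with the deposited one.

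A single D30 tumor, T4, carried much of the difference. It had the highest value of all 10 tumors for 32 of the 38 genes, and N5 had the lowest for 26. As deviations from the mean of the 10 tumors (log2), the median subunit stood at 0.05 in N1, -0.32 in N2, -0.17 in N4, -0.53 in N5 and -0.17 in N6. It stood at -0.06 in T1, 0.02 in T2, 1.09 in T4, -0.09 in T5 and 0.27 in T7. T1, T2 and T5 thus lay between N1 and the other CTRL tumors, and T7 and T4 lay above all CTRL tumors. Subunit genes held 0.234% to 0.35% of all reads in CTRL tumors, 0.451% in T4 and 0.252% to 0.342% in the other D30 tumors. Without T4 the median log2 fold change was 0.21, 33 of the 38 genes were higher (46.5% of all genes) and 2 were called, Ndufa6 and Ndufa3 (3.32% of all genes called higher). The same genes were called without T4 and T5 together (5.09% of all genes) and with genes kept at a mean of at least 10 (2.21%). Groups did not overlap for 5 genes without T4, with Ndufa13 added to the 4 above (5.69% of genes). The genes then lower in D30 tumors were Ndufa4, Ndufa7, Ndufb4, Ndufs5 and Ndufs8.

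T4 stood apart in other measures too. It held 841 reads of 4 Y-linked genes where the other 9 tumors held 0, so that T4, a D30 tumor, alone gave a sign of male cells. Its mitochondrially encoded genes took 0.892% of reads against 1.43% to 2.73% elsewhere. The part of these features in the level of the subunit genes was not tested.

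**Figure D1:**
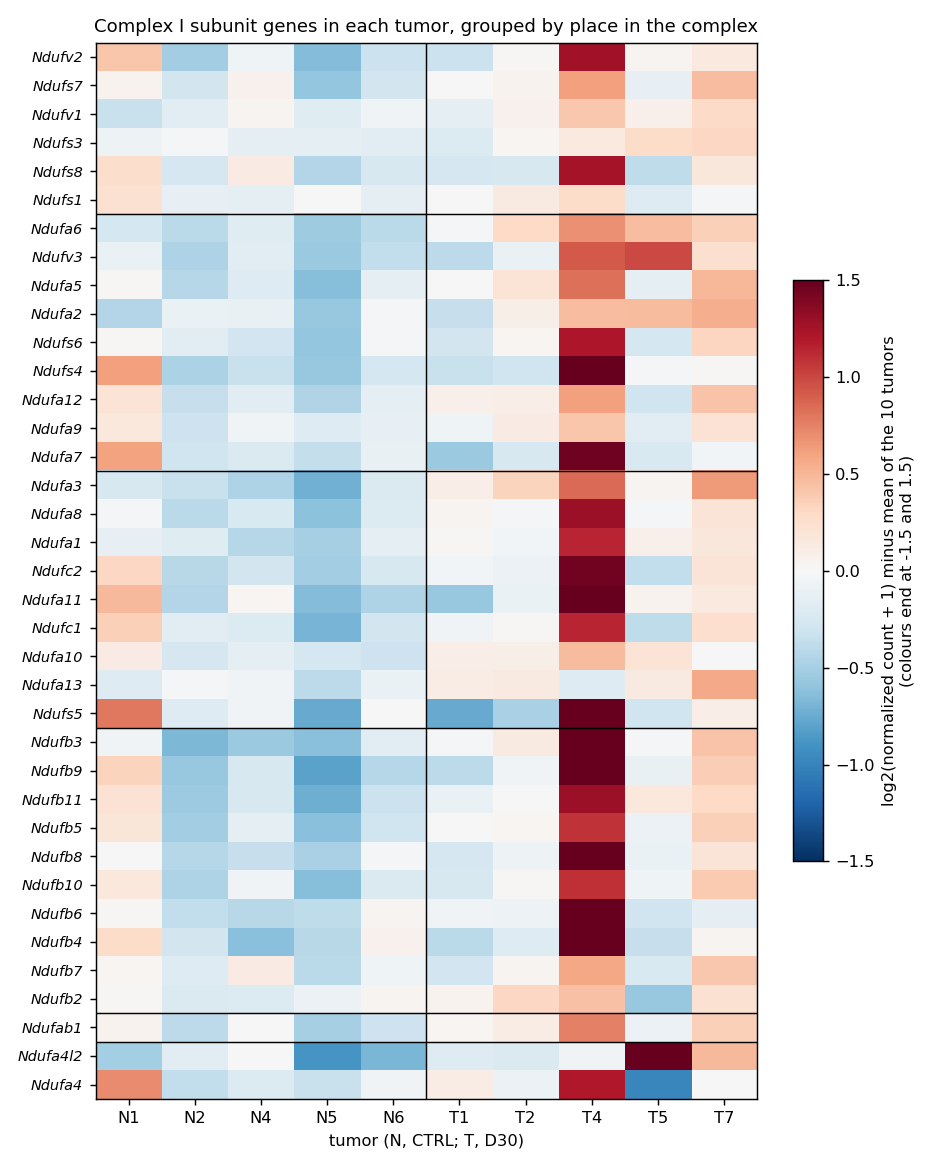
Each row is a complex I subunit gene (37 are drawn) and each column a tumor, and colour gives the log2(normalized count + 1) minus the mean of the 10 tumors, with rows grouped by place in the complex (core, accessory of the matrix arm, accessory of the membrane arm near the matrix arm, accessory at its far end, Ndufab1, and the Ndufa4 pair). T4 is the darkest red column, with the highest value for 32 of these 37 genes, and N5 the bluest.

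Among the accessory subunits of the matrix arm, which number 9 here, Ndufa6 was called and the median log2 fold change was 0.41 (0.26 without T4). Ndufa6 belongs to the LYR family, sits at the junction of both arms and binds the acyl carrier protein Ndufab1. The gene (ENSMUSG00000022450.7) lies at chromosome 15, 82350140 to 82354322, minus strand (GRCm38), and its coding transcript of 382 bases is the shortest of the set. Its normalized counts were 2846, 2573, 3000.4, 2357 and 2582 in N1, N2, N4, N5 and N6, and 3352, 4209.6, 5512, 4714 and 4379 in T1, T2, T4, T5 and T7. Every D30 tumor exceeded every CTRL tumor, and T1 came closest to the CTRL range. The means were 2672 ± 252 (SD, n = 5) and 4433 ± 785 (SD, n = 5), 1.64-fold apart, or 0.72 ± 0.17 on the log2 scale (SE, adjusted p = 0.0448). The log2 fold change was 0.63 without T4 (adjusted p = 0.0213), so the call did not depend on that tumor. It was lost without N1, N2, N4, N5, N6, T2, T5 or T7, each left out alone, with adjusted p from 0.0615 to 0.141.

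The other genes of this group differed in how the D30 tumors spread. Ndufv3, a small subunit at the tip of the matrix arm, ranged from 2247 to 5840.3 in D30 tumors, with T4 and T5 near the top and T1 inside the CTRL range of 2006 to 2746 (log2 fold change 0.66, adjusted p = 0.215). Ndufa5 and Ndufa2 had unadjusted p of 0.0245 and 0.0348 and log2 fold changes of 0.55 and 0.49. Ndufs4, whose loss is a cause of Leigh syndrome, and Ndufs6, which binds zinc, were highest in T4. Their log2 fold changes were 0.41 and 0.41 with all tumors and 0.05 and 0.16 without it. Ndufa9, a nucleotide-binding subunit, and Ndufa12 had log2 fold changes of 0.21 and 0.37, with intervals that included 0, and 0.13 and 0.26 without T4.

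Ndufa7 had one of the 5 smallest differences of the set. Its normalized counts were 9234, 4965, 5268, 4752 and 5626 in the CTRL tumors, in the order above, and 4133, 5175, 16709.5, 5222 and 5917 in the D30 tumors. T4 was far above the other tumors, N1 was the next highest, and the remaining tumors of both groups overlapped (log2 fold change 0.15 with all tumors and -0.19 without T4, adjusted p = 0.859 and 0.614). Its start lies 10 bases from that of the ribosomal protein gene Rps28, on the other strand.

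Ndufa3, a small single-span subunit of the membrane arm near the matrix arm, came next to Ndufa6 by p. The gene (ENSMUSG00000035674.14) lies at chromosome 7, 3617373 to 3620327, plus strand. Its exons overlap those of Tfpt on the other strand, and since the libraries were directional but the strand setting of the counting is not given in the sources used here, reads of both genes may be mixed. Its normalized counts were 1079, 1013, 923, 775 and 1093 in CTRL tumors and 1369.5, 1608, 2304, 1315 and 1989 in D30 tumors. All D30 tumors were above all CTRL tumors, with T4 and T7 the highest. The difference was 0.79 ± 0.20 on the log2 scale (SE, adjusted p = 0.056), just short of the threshold. It passed without T4 (adjusted p = 0.0337), without T5 (adjusted p = 0.0337), with edgeR's quasi-likelihood test on the recovered reads (adjusted p = 0.0395, 2.67% of 17127 genes called higher) and with DESeq2 (adjusted p = 0.00682, 5.04% of 21799 genes).

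The stretches upstream of Ndufa6 and Ndufa3 are shown because limma, edgeR or DESeq2 called these subunit genes with every tumor included and no correction for length. Both come from RefSeq on GRCm38.p6 and are read towards the gene. That of Ndufa3 is the 120 bases directly before its start (chr7:3617253-3617372, plus strand), and that of Ndufa6 is the 120 bases directly before the start given above (chr15:82354323-82354442, minus strand). The RefSeq start of Ndufa6 lies 31 bases further into the gene. Capitals mark matches to GGGCGG (the SP1 box), to CCAAT and to GCATGC (the centre of the NRF1 motif).
Ndufa3: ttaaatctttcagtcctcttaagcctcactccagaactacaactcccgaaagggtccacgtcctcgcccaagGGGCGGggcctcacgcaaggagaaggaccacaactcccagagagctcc
Ndufa6: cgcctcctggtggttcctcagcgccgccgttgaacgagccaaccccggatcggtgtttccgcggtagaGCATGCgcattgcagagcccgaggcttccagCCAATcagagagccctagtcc
The Ndufa3 stretch held 1 SP1 box, and that of Ndufa6 held the NRF1 centre followed by a CCAAT box.

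RefSeq promoters, 250 bases before to 50 after the start, were searched for 33 of the 38 genes. Members on chromosome 18, where Ndufa2 lies, were left out, while other genes of that chromosome were kept in the comparison. The member not reported here is not among the 33 either. Motifs were searched on both strands. The motif of YY1, AAGATGG, was found in 7 of the 33 genes (21.2%) and in 7.26% of 26992 other genes. The full NRF1 motif, GCATGC with a further GC on each side, was found in 1 gene (3.03%, against 1.07%), and its centre GCATGC, which it contains, in 3 (9.09%, against 8.93%). ETS factors (CCGGAAG) had a match in 4 genes, 12.1% against 9.93%, and the motif of the estrogen-related receptors (AAGGTCA) in 3, 9.09% against 5.38%. CCAAT was found in 10 genes (30.3%, against 41.1%), GGGCGG in 15 (45.5%, against 38.2%) and the E-box CACGTG in 2 (6.06%, against 8.09%). These are matches of letters in a window and not sites of binding. The other genes are all those with a RefSeq promoter, whether or not they were tested here. The promoters had 58.2% G and C on average, and those of other genes 53.8%. A protein-coding gene started on the opposite strand within 1000 bases for 17 of the 38 genes (44.7%), against 13.7% of 16540 protein-coding genes tested.

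The other subunits of the same stretch of the membrane arm had a median log2 fold change of 0.42 over 9 genes, Ndufa3 included. Ndufa1, which lies on the X chromosome, and Ndufa8, with its paired cysteine motifs, differed by 0.55 and 0.59 on the log2 scale (unadjusted p = 0.0358 and 0.036), and by 0.33 and 0.34 without T4. The D30 tumors other than T4 held 1216, 1171, 1266 and 1349.6 normalized counts of Ndufa1, above the CTRL maximum of 1105 by a narrow margin, and T4 held 2645. Ndufa13, also known as Grim19, was the exception to the pattern of T4 in this group. It had 2876 normalized counts in T4, inside the CTRL range of 2517 to 3218, and 3554, 3630.0, 3626 and 4883 in the other D30 tumors, all above that range (log2 fold change 0.30 with T4 and 0.39 without it, adjusted p = 0.405 and 0.134). Ndufa11, Ndufc1 and Ndufc2 had log2 fold changes of 0.42, 0.39 and 0.46 that shrank to 0.09, 0.15 and 0.15 without T4, and Ndufa10 held 0.34 and 0.26.

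Ndufs5, a small subunit on the intermembrane side, was the least abundant member in reads and among the least changed. Its normalized counts were 426, 215, 237, 144 and 246 in CTRL tumors and 145, 175, 762, 199 and 262 in D30 tumors. N1 and T4 were each the highest of their group, and the groups overlapped throughout the rest of the range. The log2 fold change of 0.08 ± 0.43 (SE) became -0.32 without T4 and -0.10 without N5.

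The 10 subunits at the far end of the membrane arm, the Ndufb genes, had the highest median log2 fold change of the larger groups, 0.50 with all tumors. Without T4 they were no longer the highest, at 0.23 against 0.26 for both other groups of accessory subunits. Ndufb3, a single-span subunit at chromosome 1, 58586384 to 58595964, plus strand, had 1421, 923, 1000.4, 955 and 1308 normalized counts in CTRL tumors and 1449.7, 1619.7, 4419, 1456 and 1982 in D30 tumors. T4 was the highest, and N1, at the top of the CTRL range, lay just under T1 and T5, so that the groups touched without overlapping. The log2 fold change was 0.84 (adjusted p = 0.161), and 0.55 without T4 (adjusted p = 0.0864). Ndufb9, an LYR protein like Ndufa6, had a spread of another kind. It was measured at 2608, 1392, 1753, 1184 and 1536 in CTRL tumors and 1569, 1984, 7675, 1911 and 2676 in D30 tumors, and N1 exceeded every D30 tumor but T4 and T7 (log2 fold change 0.68, adjusted p = 0.388, and 0.29 without T4). A gene model on the same strand, Gm49356, overlaps the exons of Ndufb9 and may take part of its reads. The same holds for Ndufb8 with Gm20538 and for Ndufb2 with Gm42420.

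Ndufb11, the other X-linked subunit, and Ndufb5 had unadjusted p of 0.0313 and 0.0418 with log2 fold changes of 0.65 and 0.56, which were 0.41 and 0.35 without T4. Ndufb4, Ndufb6 and Ndufb8 had log2 fold changes of 0.39, 0.44 and 0.51 with all tumors, and T4 held 3134, 2793 and 10051 normalized counts of them against a maximum of 876, 851 and 4007 in the other D30 tumors. Without T4 their log2 fold changes were -0.03, 0.08 and 0.20. Ndufb10 and Ndufb7 differed by 0.48 and 0.21 with intervals that included 0, and by 0.27 and 0.09 without T4. Ndufb2 was measured at 421, 359, 361, 394 and 428 in CTRL tumors and 433, 517, 566, 282 and 489 in D30 tumors, where T5 was the lowest and the other 4 lay above all CTRL tumors (log2 fold change 0.18, 0.10 without T4, adjusted p = 0.723).

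**Figure D2:**
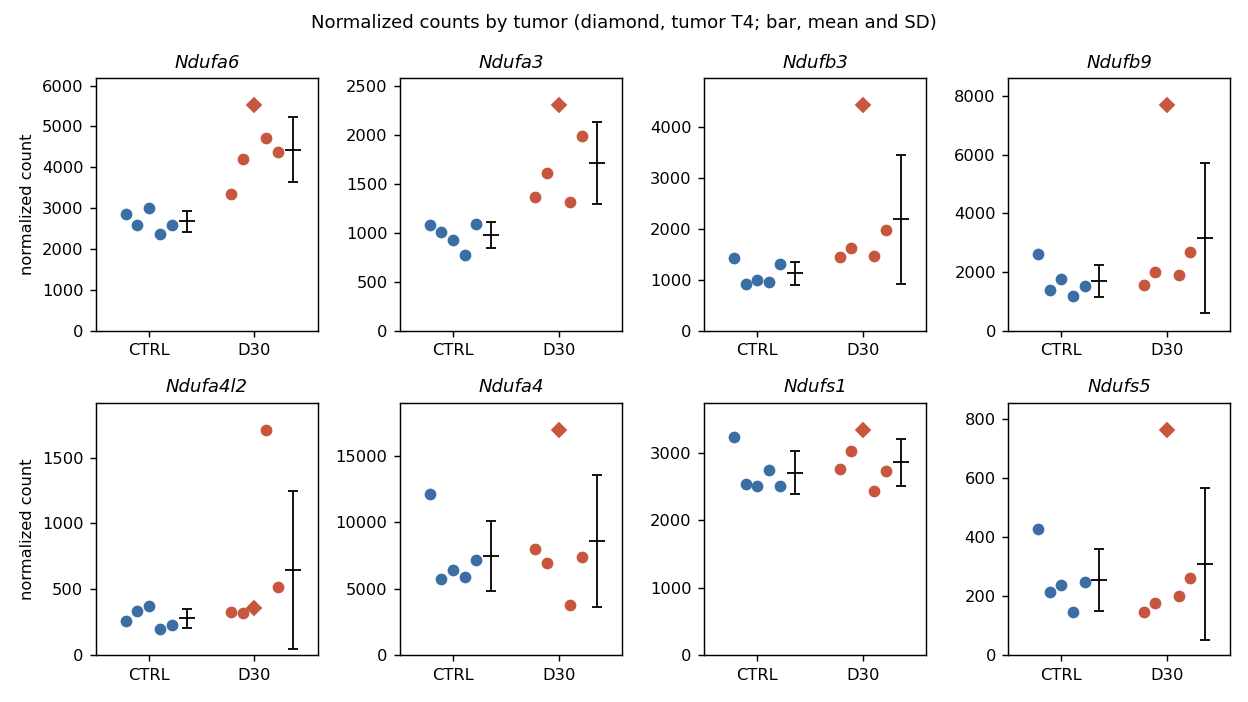
Normalized counts of 8 subunit genes in each tumor, with CTRL in blue and D30 in red, T4 as a diamond, and the mean and SD of each group (n = 5) as a bar. Groups do not overlap for Ndufa6, Ndufa3 and Ndufb3, T4 is the highest for Ndufb9, Ndufa4, Ndufs1 and Ndufs5, and T5 for Ndufa4l2.

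The 7 nuclear core subunits, which hold the flavin and the iron-sulfur clusters, had the smallest median log2 fold change of the groups, 0.22, and 0 of them had an unadjusted p under 0.05 with limma or were called by edgeR or DESeq2. They have longer coding transcripts (median 1312 bases), and with the length trend removed their median was 0.12, above 0.07 for the accessory subunits of the matrix arm and 0.07 for those of the membrane arm near it. Ndufv1 and Ndufv2 form the NADH-oxidising tip. Ndufv1 ranged from 3600.0 to 4687 in CTRL and 4143 to 6032 in D30 tumors (log2 fold change 0.28, adjusted p = 0.418), and Ndufv2 had a log2 fold change of 0.46 that was 0.20 without T4. Ndufs7, which lies beside the ubiquinone pocket, had 0.41 and 0.30. Ndufs3 and Ndufs8 had 0.22 and 0.22, the latter -0.07 without T4.

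Ndufs1, the largest subunit and a carrier of several iron-sulfur clusters, differed least of the 38. Its normalized counts were 3239, 2537, 2509, 2746 and 2505 in CTRL tumors and 2754, 3031, 3341, 2428 and 2726 in D30 tumors, with both groups spread over the same range. The log2 fold change was 0.08 (95% interval -0.27 to 0.43), 0.02 without T4 and -0.15 when tumors were scaled by total reads. Read within a tumor, as the log2 distance from the median of the other 37 subunits, Ndufs1 stood at 0.53 in CTRL and 0.25 in D30 tumors. The SDs were 0.21 and 0.36, and the groups overlapped.

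Ndufab1, the mitochondrial acyl carrier protein, is held by the complex in a pair of copies and also serves fatty acid synthesis and iron-sulfur cluster formation. It ranged from 1317 to 1943 in CTRL and 1761 to 3153 in D30 tumors, with a log2 fold change of 0.46 (unadjusted p = 0.0404, adjusted p = 0.263) and 0.33 without T4.

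Ndufa4 and its paralog Ndufa4l2 carry the name of the family, though Ndufa4 is now placed in cytochrome c oxidase and Ndufa4l2 is known as a gene induced by hypoxia that restrains respiration. Ndufa4 had 12113, 5736, 6395, 5860.5 and 7144 normalized counts in CTRL tumors and 7946, 6943, 16952, 3734 and 7385 in D30 tumors. T4 was the highest and T5 the lowest of all, both in the D30 group, and N1 was second (log2 fold change 0.09, 95% interval -0.65 to 0.84, and -0.19 without T4). Ndufa4l2 went the other way in T5. It had 259.8, 332, 373, 200.1 and 230.2 in CTRL tumors and 323, 317, 356, 1711 and 517 in D30 tumors, and T5 exceeded every other tumor while T1, T2 and T4 lay within the CTRL range. Its log2 fold change was the highest of the set, 0.89 ± 0.42 (SE, adjusted p = 0.296). Without T5 the log2 fold change of Ndufa4l2 was 0.45, below the median of the subunits in that fit, 0.49. Ndufb3 at 0.95 and Ndufa3 at 0.88 were then the highest. The exons of Ndufa4l2 overlap those of Shmt2 on the other strand.

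A list of 8 hypoxia genes was, like Ndufa4l2, highest in T5. As a mean deviation from all tumors (log2), the list stood at 1.98 in T5 and between -0.92 and -0.01 in CTRL tumors. In the other D30 tumors it stood at 0.72 in T4, 0.48 in T7, 0.32 in T2 and -0.01 in T1. In T2 and T4 the list thus lay above every CTRL tumor, while Ndufa4l2 lay within the CTRL range. Of its genes limma called 3 higher, against 1.4% of all genes. EdgeR called 4 of the 8 and DESeq2 5 (2.67% and 5.04% of all genes called higher). Those called by limma were Ankrd37, Car9 and Egln3, with log2 fold changes of 1.62, 1.75 and 1.66 (adjusted p = 0.0141, 0.0153 and 0.0323). Without N2 the call of Car9 was lost (adjusted p = 0.0557), and that of Egln3 was lost without N1, N2, N5, N6 or T7 (adjusted p = 0.0567 to 0.0912). The part of the hypoxia genes in the level of Ndufa4l2 was not tested.

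**Figure D3:**
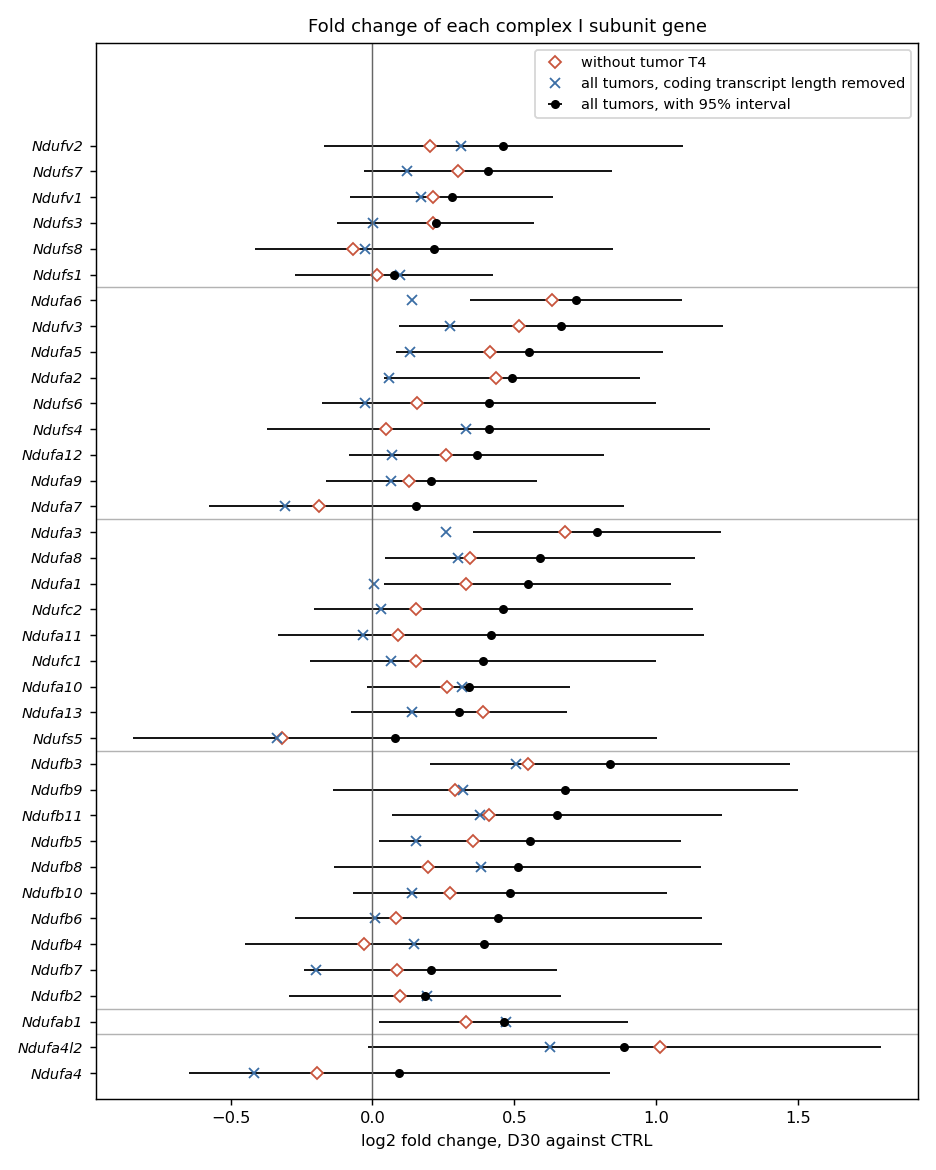
Log2 fold change of 37 subunit genes, D30 against CTRL, in the same row groups as the colour plot; filled points are the fit with all tumors and lines its 95% interval, open diamonds leave out T4, and crosses remove the trend with coding transcript length. All 37 filled points lie above 0, 32 do without T4 and 30 with the length trend removed, and 28 did under scaling by total reads, which is not drawn.

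Levels between genes were set side by side as normalized counts per 1000 bases of annotated exon. The highest were Ndufa2 (7362), Ndufa4 (5808) and Ndufb11 (4197), and the lowest Ndufb2 (75.5), Ndufab1 (279.7) and Ndufs5 (327). Exon length here is the union over all annotated transcripts of a gene. Per 1000 bases of the median coding transcript, a measure chosen after the values were seen, the highest were Ndufa4 (17437), Ndufa7 (12689.7) and Ndufa6 (9299.9), and the lowest Ndufb2 (176), Ndufs5 (469) and Ndufa4l2 (495).

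The subunit genes share short transcripts. Their median coding transcript has 810 bases, and 26 of the 38 (68.4%) have at most 1000, against a median of 2720 and 7.78% among other protein-coding genes with a mean of at least 100. The fold change of other genes moved with this length. Their median log2 fold change was 0.55 for 61 genes of up to 500 bases, 0.31 for 836 genes up to 1000, 0.07 for 1530 genes between 1500 and 2000, and -0.21 for 1635 genes over 5000. Among the 897 other genes of at most 1000 bases, 78.0% were higher in D30 tumors. The subunit genes of at most 1000 bases had a median of 0.47 over 26 genes, and the 12 longer ones lay at 0.30 (5 genes, 1000 to 1500 bases), 0.28 (3 genes, 1500 to 2000) and 0.26 (4 genes, 2000 to 3000). T4 and N5 were at opposite ends of the trend, with the shortest genes at 1.17 and -0.60 (median deviation, log2) and the longest at -0.71 and 0.29. Without T4 the genes of at most 1000 bases had a median of 0.13.

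When the trend with coding transcript length was removed in each tumor, over 11572 protein-coding genes, 31 of the 38 subunit genes were still higher in D30 tumors (49.9% of genes), with a median log2 fold change of 0.14. None was called (limma; 5 had an unadjusted p under 0.05, and 2.67% of genes were called higher), and the smallest adjusted p was 0.0935, for Ndufb3. Ndufa6 then had a log2 fold change of 0.14 (adjusted p = 0.791) and Ndufa3 of 0.26 (adjusted p = 0.496). The 7 genes lower in D30 tumors were Ndufa4, Ndufs5, Ndufa7, Ndufb7, Ndufa11, Ndufs8 and Ndufs6. A correction on exon length and GC content, which uses the longer exon unions, left all 38 higher and called 3, Ndufa3, Ndufa6 and Ndufb3 (2.31% of genes called higher). The part of transcript length in the difference was not tested.

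**Figure D4:**
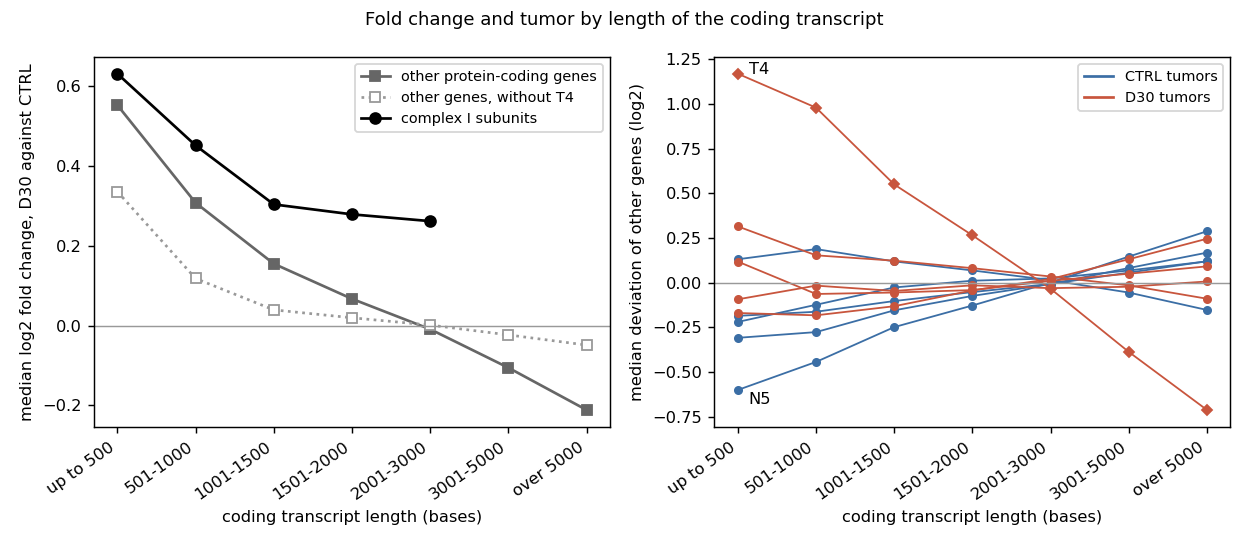
Left, median log2 fold change by length class of the coding transcript (bases) for the 38 subunit genes and for other protein-coding genes with a mean of at least 100, with and without T4. Right, the median deviation (log2) of those other genes in each tumor by the same classes: T4 falls from 1.17 to -0.71 and N5 climbs from -0.60 to 0.29.

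The partners of the nuclear subunits were followed in lists of their own. The 7 mitochondrially encoded subunits did not share the direction: 6 of 7 were lower in D30 tumors, their median log2 fold change was -0.45, and 0 were called by limma, edgeR or DESeq2 (with limma 1, mt-Nd2, had an unadjusted p under 0.05). mt-Nd2 had 28287, 35459, 27116, 48782 and 42227 normalized counts in CTRL tumors and 29197, 31204, 15619, 21789 and 25066 in D30 tumors (log2 fold change -0.57, adjusted p = 0.253). mt-Nd1 differed by -0.39 (adjusted p = 0.361). T4 and T5 were the lowest tumors for the list (-0.55 and -0.64, mean deviation on the log2 scale) and N5 the highest (0.61), while for the nuclear subunits T4 was the highest and N5 the lowest.

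The 18 assembly factors tested, which build the complex and leave it, showed a median difference of 0.02 (log2). Of them 11 were higher and 7 lower, and 0 were called by limma, edgeR or DESeq2 (with limma 1 had an unadjusted p under 0.05). Without T4 the median was -0.17 and 4 were higher. Ndufaf8 was at 519 ± 90.4 in CTRL and 813 ± 277 in D30 tumors (SD, n = 5 each, log2 fold change 0.60, adjusted p = 0.216), and Ndufaf1 at 606 ± 101 and 457 ± 109 (log2 fold change -0.43, adjusted p = 0.347). Their median coding transcript of 1623 bases is longer than that of the subunits.

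Nuclear subunits of the other oxidative phosphorylation complexes had fold changes of like size. All 46 were higher in D30 tumors with all tumors in the fit, with a median of 0.45 (0.23 with tumors scaled by total reads). Of all genes tested 45.3% were higher, and of the other genes of at most 1000 bases described above 78.0%. Limma called 0 of the 46 (13 had an unadjusted p under 0.05, against 7.79% of all genes in the same direction). EdgeR called 0 and DESeq2 3 (5.04% of all genes called higher by DESeq2). Without T4 the median was 0.25 and 40 were higher, and with the length trend removed it was 0.13 over 43 genes. By complex the medians were 0.22 for the 4 genes of complex II, 0.49 for 9 of complex III, 0.56 for 15 of complex IV and 0.44 for 18 of complex V. Uqcr11 of complex III and Cox8a of complex IV were closest to a call, with log2 fold changes of 0.73 and 0.74 (adjusted p = 0.0861 and 0.0797), and Cox8a was called without T4 (adjusted p = 0.0371) while Uqcr11 was not. Sdhd of complex II and Atp5d of ATP synthase differed by 0.60 and 0.55 (adjusted p = 0.186 and 0.133). Cytosolic ribosomal protein genes, likewise short (median 771 bases), had a median of 0.80 over 79 genes. Of these 78 were higher and 7 called by limma (1.4% of all genes called higher). Their median was 0.53 without T4 and 0.47 with the length trend removed. Those of the mitochondrial ribosome had 0.17 over 77 genes, and 0.00 without T4.

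**Figure D5:**
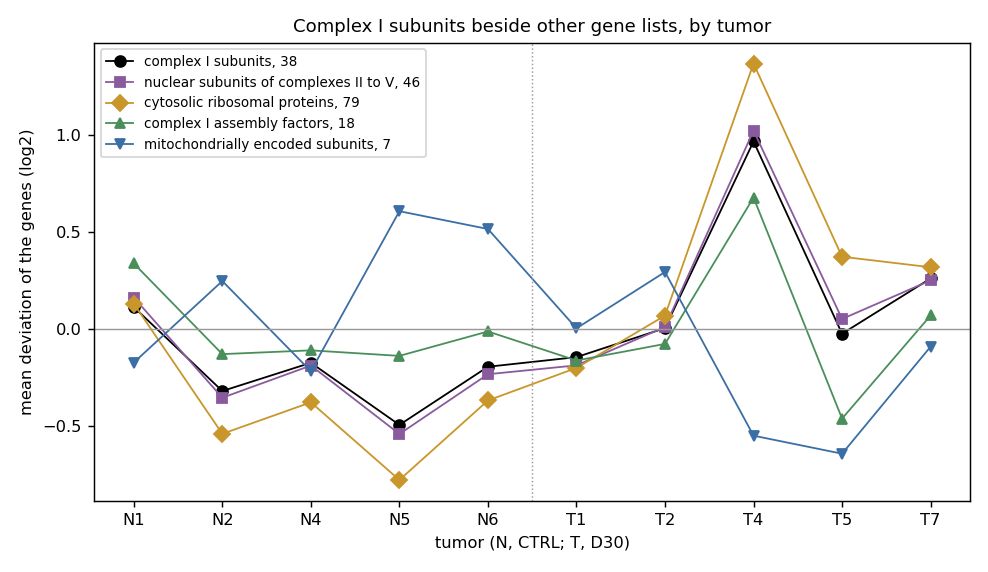
Mean deviation of the genes of each list from the mean of the 10 tumors (log2), by tumor. The lines for complex I and complexes II to V nearly coincide and peak in T4 (0.97 and 1.02), the mitochondrially encoded subunits are lowest in T4 and T5, and the assembly factors stay between -0.46 and 0.68.

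Regulators of mitochondrial genes moved in both directions, with 1 of 15 called higher by limma and 1 called lower (1.36% of all genes were called lower). EdgeR called 2 of the 15 and DESeq2 3, of 707 and 1858 genes called in all. Ppargc1a, the coactivator PGC-1alpha, fell. It had 213, 335, 159.9, 366 and 196 normalized counts in CTRL tumors and 94.6, 116, 46.3, 145 and 47.9 in D30 tumors, and no D30 tumor reached the lowest CTRL value (-1.56 ± 0.38 on the log2 scale, SE, adjusted p = 0.0478). Esrra, the estrogen-related receptor alpha that binds respiratory gene promoters, rose. It had 2151, 2181, 2099.6, 2192 and 2552 in CTRL tumors and 3527, 4466, 7069, 2786 and 4289.7 in D30 tumors, again without overlap (0.92 ± 0.23 on the log2 scale, SE, adjusted p = 0.0491). Both calls held without T4 (adjusted p = 0.0371 and 0.0175) or T5, and both were lost without any 1 of the other 8 tumors, with adjusted p of 0.0576 to 0.151 for Ppargc1a and 0.0590 to 0.137 for Esrra. Ppargc1b, a related coactivator named after its values were seen, stood at 14.7, 13, 15.5, 12.4 and 18.8 in CTRL and 97.7, 142, 8.1, 63 and 65 in D30 tumors, with T4 below the CTRL range and the other 4 above it (adjusted p = 0.152 with all tumors and 0.00214 without T4).

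Among 10 genes of other routes that feed electrons to ubiquinone or carry NADH equivalents into mitochondria, 6 were higher, 4 lower and 0 called by limma (2 had an unadjusted p under 0.05) or edgeR, and 1 by DESeq2. Etfb, a subunit of the electron transfer flavoprotein, and Sqor, the sulfide quinone oxidoreductase, had log2 fold changes of 0.83 and 0.50 (adjusted p = 0.0964 and 0.197).

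The tumors also differed in markers of their cells, and in bulk tissue fewer cells of a type and less RNA in each cannot be told apart. The keratins Krt8, Krt18 and Krt19 were high in every tumor. The 8 epithelial markers summed to 209950.3 to 335623 normalized counts in CTRL and 341449 to 476102 in D30 tumors, 7 of 8 were higher and 0 were called by limma. The unadjusted p was under 0.05 for 6 of the higher genes and for Epcam, the lower one (log2 fold change -3.17, adjusted p = 0.099), which was at 15.9 to 191 in CTRL tumors and at 0 in T2. Their mean deviation, in which each gene counts alike, was highest in T4 (0.65) and lowest in N5 (-0.76), as it was for the subunit genes. By sum T4 (414601) lay below T5 (476102) and T1 (436183). Among D30 tumors T4 was the lowest for Krt8, Krt19 and Cdh1. It was the highest of them for Krt18, Krt7, Cldn4 and Epcam, the last 2 with few counts. Fibroblast markers summed to 76539 to 135533 in CTRL and 26981 to 102553 in D30 tumors. All 8 were lower and 0 were called by limma (6 had an unadjusted p under 0.05). By mean deviation T4 was the lowest tumor (-0.98). Among D30 tumors it was the lowest for Col1a1, Col1a2, Col3a1 and Pdgfrb and the highest for Fap. For Lum, Pdgfra and Dcn it was neither. The median coding transcript of the list had 5333 bases, a length at which other genes also stood low in T4. Acinar markers, 8 of 9 lower and 0 called by limma (3 had an unadjusted p under 0.05), summed to 275 to 64818 in CTRL and 144 to 6544 in D30 tumors, with N2, N6 and T4 the highest. Macrophage markers (5 of 7 lower) and endothelial markers (5 of 6 lower) each had 1 gene called lower by limma, Csf1r and Cdh5, named after their values were seen (log2 fold change -1.06 and -1.45, adjusted p = 0.0449 and 0.0117). The call of Cdh5 was kept without any 1 of the 10 tumors, and that of Csf1r was kept only without T2 or T4, with adjusted p of 0.0511 to 0.147 without another tumor. Limma called 0 genes of the remaining marker lists: of neutrophil markers 5 of 5 were higher (3 with an unadjusted p under 0.05), of T cell markers 6 of 6 lower (2), of B cell markers 3 of 4 lower (0), of adipocyte markers 6 of 7 lower (0) and of muscle markers 4 of 4 higher (2). DESeq2 called 2 epithelial, 2 fibroblast, 2 macrophage, 1 endothelial, 1 T cell and 1 muscle marker, of 1858 genes called in all. EdgeR called 1 macrophage and 1 endothelial marker, of 707 genes. The part of these markers in the level of the subunit genes was not tested.

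Names, overlaps and copies limit some values. Exons of Ndufa2, Ndufa11, Ndufa13, Ndufb2, Ndufb5, Ndufb6, Ndufb11, Ndufs1, Ndufs3 and Ndufs6 also overlap those of a protein-coding gene on the other strand. As for Ndufa3 and Ndufa4l2, reads of both genes may be mixed there. Ndufb1-ps, which the annotation used here classes as noncoding, had 965 ± 313 normalized counts in CTRL and 1575 ± 1396 in D30 tumors (SD, n = 5 each, log2 fold change 0.45, adjusted p = 0.602), with 4071 in T4. Ndufb4, Ndufab1 and Ndufa11 have named pseudogenes in the annotation (Ndufb4c, Ndufab1-ps and Ndufa11b) that could share their reads, with mean normalized counts of 15.5, 2.98 and 1.25.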

How the data were processed

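RNA from 10 orthotopic tumors (5 CTRL and 5 D30) had been made into directional libraries and sequenced in pairs. Per the labels, the submitters' processing notes name CASAVA, FastQC, Trim Galore, STAR 2.7.0e, DESeq2 and the build GRCm39, while the study's methods name a human build, and neither the gene annotation nor the strand setting of the counting is given in the sources used here. The authors deposited 1 table of normalized counts (a signal, reads divided by a size factor for each tumor) for 55359 gene identifiers. Column names matched the group and not the sample.

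Identifiers were named with the GENCODE M21 annotation (GRCm38), which held 52083 of them (94.1%). Coordinates and lengths are from that annotation, which is not the build named by the submitters, and the table itself carries none. Genes with a mean of at least 1 were tested with limma 3.58.1 (R 4.3.3; trend) on log2(normalized count + 1), 5 against 5, with Benjamini-Hochberg adjustment over 24560 genes. Each value is a whole multiple of the step of its tumor within a relative tolerance of 0.001 (100% of values). Reads were thus recovered, 29192261 to 42122304 a tumor. The tolerance widens with the count, so for genes with many reads the check could not fail. On these reads edgeR 4.0.16 (quasi-likelihood test) called 707 genes and DESeq2 1.42.0 called 1858, against 678 with limma. Fold changes on this scale understate those of genes with few counts. The fits were tested on simulated data. Alternatives were other tests, scalings, pseudocounts and filters, a correction for exon length and GC content, and each tumor left out. Leaving out T4 with T5 and correcting for coding transcript length (a lowess curve for each tumor on protein-coding genes with a mean of at least 100) were added after the data were seen.

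The members and all gene lists were chosen with earlier results of these data known. Values in every tumor are given for members called with all tumors, for the 5 largest and the 5 smallest log2 fold changes, and for Ndufa4 and Ndufa4l2. For level, the 3 highest and 3 lowest per 1000 bases of exon are named. From the lists of assembly factors, mitochondrially encoded subunits, regulators, each other complex, other electron routes and hypoxia genes, the called genes are named (up to 3), otherwise 1 or 2 with the smallest p. Genes of the cell marker lists were named after their values were seen. Other members are named with ranges or differences, and 1 member, counted in all totals over the 38, is not reported here. Promoter and upstream sequences are from RefSeq (GRCm38.p6).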

Additional observations from a re-analysis of the deposited data

Results flagged for a closer look

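Within each group of 5 tumors, a value was singled out when its gap to the nearest other tumor exceeded 0.71 of the range of the group (Dixon's 95% critical value). Of 74 groups of values (37 genes, CTRL and D30 apart), 22 held such a value. Chance alone flags about 1 in 20, but these groups share the same tumors and are not independent. Over all genes tested with a range above 0, such a value was held by 13.0% of CTRL groups and 23.1% of D30 groups. There T4 was the tumor in 13.0% and T5 in 6.47% of the D30 groups, and N1 in 8.22% of the CTRL groups. Of the 22 values of subunit genes, T4 was the tumor in 17, N1 in 4 and T5 in 1.

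In T4 the high values among membrane arm subunits were 2645 normalized counts of Ndufa1, 5202 of Ndufa11, 6607 of Ndufa8, 3878 of Ndufc2 and 762 of Ndufs5, and among the Ndufb genes 8566 of Ndufb11, 4419 of Ndufb3, 3134 of Ndufb4, 3847 of Ndufb5, 2793 of Ndufb6, 10051 of Ndufb8 and 7675 of Ndufb9. In the matrix arm T4 stood out with 16709.5 normalized counts of Ndufa7, 5544 of Ndufs4, 2919 of Ndufs6, 5889 of Ndufs8 and 7711 of Ndufv2. Ndufa6, the subunit called with all tumors, was not among them.

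N1 was far above the other CTRL tumors for Ndufa4 (12113 normalized counts), Ndufa7 (9234), Ndufc2 (1755) and Ndufs4 (2716). T5 was far above the other D30 tumors for Ndufa4l2 (1711). These tumors were kept in the fit with all tumors.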

How the results depend on the processing

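The count of called subunits was 1 (Ndufa6) with limma. It was 2 with edgeR, with edgeR on DESeq2's size factors, with DESeq2, with a mean of at least 10 and without T4 and T5 together, 3 with the correction for exon length and GC content, and 0 with scaling by total reads, with upper-quartile scaling, with no filter and with the correction for coding transcript length. With 1 tumor left out at a time it was 0 to 2. The median log2 fold change of the subunits, 0.41, stayed above 0 under all 22 alternatives but was 0.14 with the correction for coding transcript length and 0.19 with scaling by total reads. With 1 tumor left out it was 0.21 (without T4) to 0.53. Over all genes, limma called 344 higher and 334 lower, edgeR 457 and 250, scaling by total reads 240 and 624, and the correction for coding transcript length 309 and 190. Without T4 1573 genes were called in all, without N2 279.

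Over 37 single genes, signs changed 25 times. With scaling by total reads the log2 fold changes were -0.00087 for Ndufs3, -0.017 for Ndufa9, -0.018 for Ndufb7, -0.0073 for Ndufs8, -0.039 for Ndufb2, -0.069 for Ndufa7, -0.14 for Ndufs5, -0.13 for Ndufa4 and -0.15 for Ndufs1. With 1 tumor left out the range was -0.069 to 0.34 for Ndufs8, -0.19 to 0.32 for Ndufa7, -0.32 to 0.29 for Ndufs5, -0.19 to 0.35 for Ndufa4 and -0.029 to 0.54 for Ndufb4, each lowest without T4, and Ndufs5 was at -0.10 without N5. Without T4 and T5 Ndufs8 was at -0.0022, Ndufa7 at -0.20 and Ndufs5 at -0.34. With the correction for coding transcript length Ndufs6 was at -0.025, Ndufa11 at -0.033, Ndufb7 at -0.20, Ndufs8 at -0.027, Ndufa7 at -0.31, Ndufs5 at -0.34 and Ndufa4 at -0.42. The causes were not tested. Of the other values for single genes, 768 kept direction and side of the threshold, 9 passed it and 12 no longer did. No paired analysis was possible because the column names carry other numbers than the replicates of the labels. The study's methods describe no pairing of mice between the groups. They state that tumor-bearing mice of the orthotopic experiments were randomized to their treatments.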
